A study of Homo sapiens with 16 samples.

Results

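Early neural transcription factors were followed in human embryonic stem cells transfected with siRNAs against 4 genes. They are SOX3, SOX11, SOX21, FEZF1, HES3, ZIC2, OTX2, SIX3 and GBX2. These 9 genes were taken by gene name and are 9 of the 60675 rows of the deposited count table. They were chosen with earlier results of these data known, so counts over them are descriptions. Polyadenylated RNA came from H9, an established human embryonic stem cell line, which in every group carried an EGFP gene under the REX1 promoter and grew on Matrigel without feeder cells. Pooled siRNAs at 30 to 50 nM targeted SALL4 or VRTN (harvest at 48 h) and DSCC1 or SEPHS1 (harvest at 72 h), with 3 libraries for each target. The 4 control libraries comprised 2 transfected with an esiRNA to Renilla luciferase (the Luciferase group) and 2 with a second control siRNA (the Control group).

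The SALL4, DSCC1, SEPHS1 and luciferase reagents were esiRNAs, which are pools made by enzymatic digestion, whereas the VRTN reagent was an siRNA from another maker. The origin of the second control siRNA and the harvest time of the controls are not given in the labels. All groups were 1 reporter line transfected transiently, so harvest time, siRNA type and target cannot be told apart in comparisons that differ in all of them. The labels call the replicates of a knockdown independent biological replicates.

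SALL4 is a zinc finger transcription factor of pluripotent cells and SEPHS1 belongs to the selenophosphate synthetase family. DSCC1 is a subunit of an alternative clamp loader used in sister chromatid cohesion, and VRTN, vertnin, is a factor known from vertebral number in livestock.

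Pluripotent cells that lose their self-renewal signals tend towards an anterior neural fate unless BMP or Nodal signals direct them elsewhere. SOX3, like SOX2, is a SOXB1 activator that maintains neural progenitors, SOX21 is a SOXB2 factor that counteracts SOXB1 proteins, and SOX11 is a SOXC factor that promotes neuronal gene expression. FEZF1 is a zinc finger repressor of the forebrain, and SIX3 and OTX2 are homeodomain factors of the anterior neural plate and of the forebrain and midbrain. GBX2 is a homeodomain factor of the anterior hindbrain whose border with OTX2 sets the midbrain and hindbrain boundary. ZIC2 is a zinc finger factor of the neural plate, and HES3 is a bHLH repressor of the Hairy and Enhancer of split family. Several members of that family, though not all, delay neuronal differentiation downstream of Notch. OTX2, ZIC2, SOX11 and GBX2 are also known to be transcribed in pluripotent cells before neural induction.

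The libraries held between 18597262 and 28662389 counts in total, with 14725 to 16634 genes at 10 counts or above. Levels are library-size scaled counts (CPM, with TMM factors), given with the SD. A floor of 3 counts equalled 0.102 to 0.175 CPM and covers counting error only. A change is a log2 fold change and is given with its SE, and a gene is called where edgeR's quasi-likelihood test gave a Benjamini-Hochberg adjusted p under 0.05 over 19772 tested genes. In bulk RNA, fewer cells that express a gene and less RNA per cell cannot be told apart.

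The targeted transcripts were checked first. SALL4 was at 213.5 ± 21.1 CPM after SALL4 siRNA (n = 3) and at 274.1 ± 25.3 in the controls (n = 4), a difference of -0.36 that was not called (edgeR adjusted p = 0.0562). VRTN and SEPHS1 each fell by 2.75 under their own siRNA, to 21.3 and 60.9 CPM. DSCC1 was at 0.806 ± 0.180 CPM under its siRNA against 3.93 ± 0.853, a difference of -2.27 that was not called (adjusted p = 0.486). SEPHS1 RNA was also lower after SALL4 siRNA, by -0.99 (adjusted p = 1.13e-05).

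The stem cell label was borne by POU5F1 at 198 ± 10.7 and NANOG at 86.0 ± 11.0 CPM in the controls (n = 4), while ZFP42, the gene of REX1, had no count in any of the 16 libraries. PAX6, a defining gene of neuroectoderm, had no count in the controls and reached at most 1.36 CPM. The 4 neuron markers summed to 1.64 to 8.06 CPM across all libraries. The early neural factors were therefore read in cultures where the later neural marker PAX6 was at or near 0.

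The libraries did not fall into groups by siRNA alone. GBX2 lay between 15.7 and 39.6 CPM in 6 libraries, namely replicate 1 of both control siRNAs and replicates 1 and 2 of SALL4 and of VRTN. It lay between 0.139 and 2.05 CPM in the other 10. SPRY4, a target of FGF signalling, split the same libraries into 329 to 509 CPM and 229 to 273 CPM. Neither the labels nor the table's header gives a batch for this split, and its part in the results was not tested. Each called change of the 9 genes against the controls is therefore given with replicate 1 and with replicate 2 of the controls alone, and other genes are given against all 4 controls.

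In the controls the 9 genes spanned a wide range of levels per kilobase of merged exon, on the CPM scale. ZIC2 was highest with 67.2 ± 10.9 CPM per kb, followed by OTX2 with 14.2 ± 1.08, HES3 with 12.8 ± 1.88 and SOX3 with 7.98 ± 1.55. GBX2 had 3.73 ± 3.82, FEZF1 2.47 ± 0.739, SOX11 1.62 ± 0.283, SOX21 0.973 ± 0.576 and SIX3 0.0604 ± 0.0975 CPM per kb (SD, n = 4). ZIC2 RNA was thus plentiful in the undepleted stem cells, OTX2 and HES3 stood at levels close to each other, and SIX3 was near the floor.

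**Figure D1:**
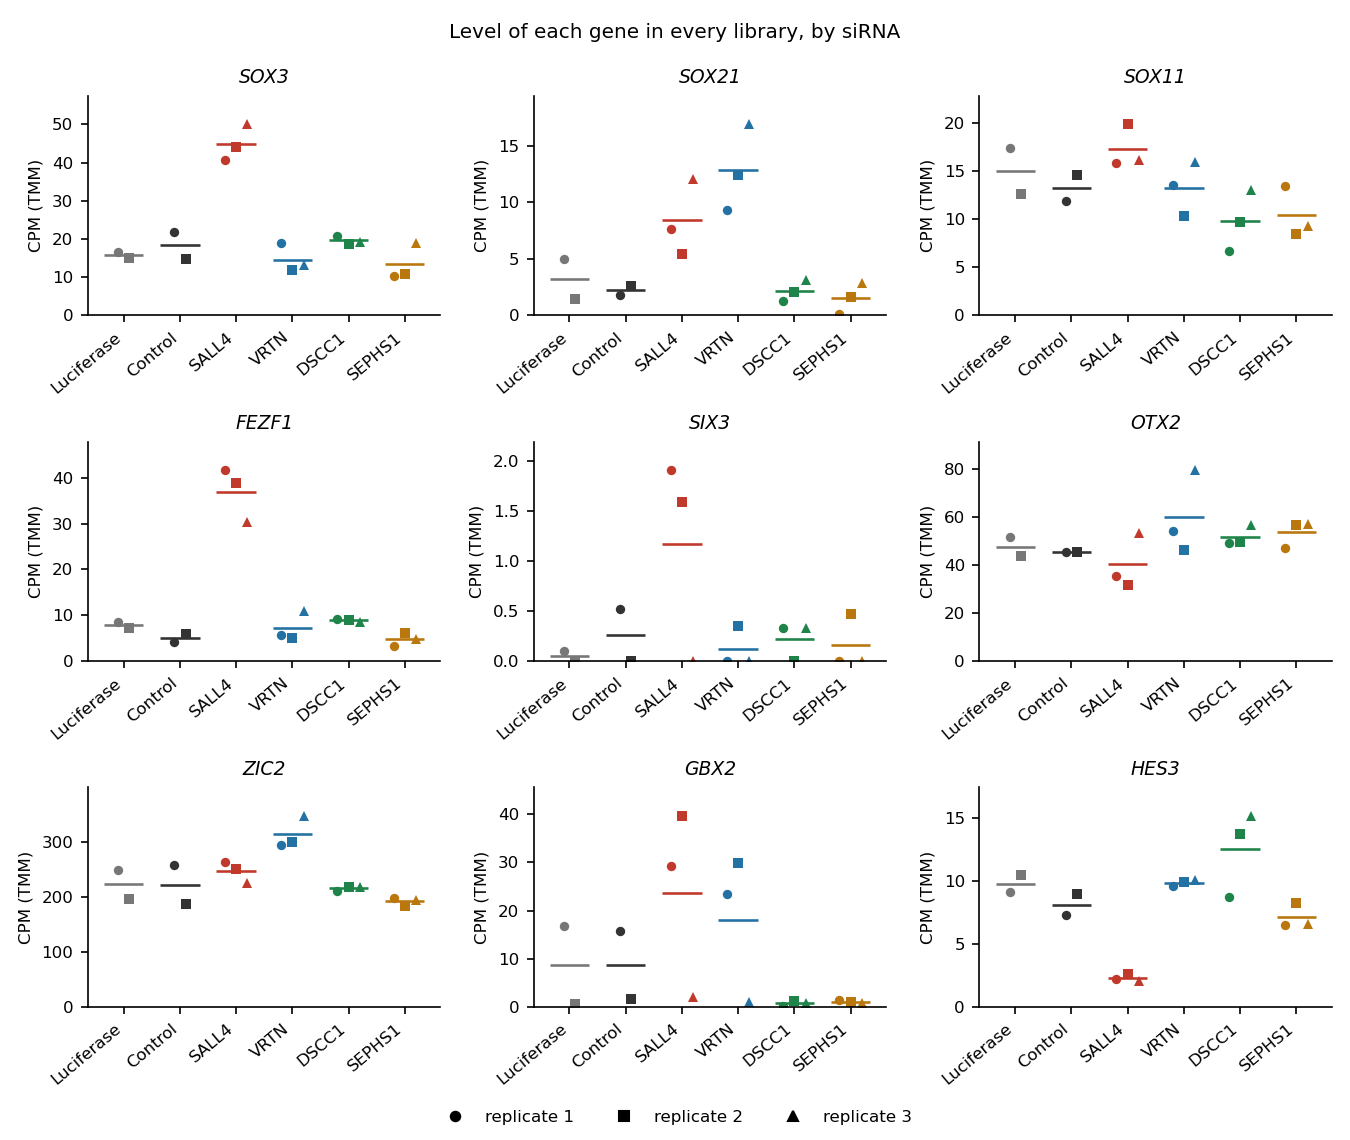
Level of each of the 9 genes in every library (CPM, linear axis from 0, a separate scale for each gene), by siRNA. Symbols are replicates and horizontal bars are group means; SOX3 and FEZF1 stand high and HES3 low in the 3 SALL4 libraries, SOX21 and ZIC2 are highest on average under VRTN siRNA, and GBX2 splits within groups.

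After SALL4 siRNA, SOX3 and FEZF1 rose and HES3 fell, and the other 6 genes were not called. That is 3 of 9, where 2.98% of all tested genes were called (1.85% higher and 1.13% lower). Because the 9 were chosen with earlier results known, this count describes the set and is no test of it. The 3 libraries lay outside the range of the 4 controls for 4 of the 9 genes, which 13.7% of all tested genes did. The median log2 fold change was 0.84 over the 8 genes other than SIX3, which was near the count floor, beside 0.02 over all genes. The 8 estimates ran from -1.97 to 2.56 and 2 were negative. This median lay between SOX11 (0.29) and SOX3 (1.40), with no gene near it, so it describes no shared shift. It also includes GBX2 (1.46), whose value turned on which controls were used.

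SOX3 (ENSG00000134595) is a gene of 1 exon on the minus strand at chrX:140502985-140505116 (GRCh38, GENCODE release 29). The controls had 16.4 and 15.0 CPM with Luciferase siRNA and 21.9 and 14.8 CPM with Control siRNA, while the SALL4 libraries had 40.7, 44.2 and 50.0 CPM. Every SALL4 library was above every control. SOX3 rose by 1.40 (SE 0.21, 95% interval 0.97 to 1.84), to 44.9 ± 4.71 from 17.0 ± 3.30 CPM, with an adjusted p of 8.1e-05 in edgeR's test. The change was 1.24 against replicate 1 of the controls and 1.59 against replicate 2, called in both.

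FEZF1 (ENSG00000128610) lies on the minus strand at chr7:122301394-122310691. Its controls had 8.59 and 7.20 CPM with Luciferase siRNA and 4.05 and 5.92 CPM with Control siRNA, and its SALL4 libraries had 41.6, 38.8 and 30.3 CPM. The lowest SALL4 library was above the highest control by more than the whole range of the controls. FEZF1 rose by 2.56 (SE 0.27, interval 2 to 3.11), a 5.88-fold change, with an adjusted p of 1.62e-07 in edgeR's test. Against replicate 1 or replicate 2 of the controls alone it rose by 2.64 and 2.50.

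HES3 (ENSG00000173673), on the plus strand at chr1:6244192-6245578, moved the other way. It had 9.11 and 10.5 CPM with Luciferase siRNA, 7.28 and 8.95 with Control siRNA, and 2.18, 2.61 and 2.05 CPM with SALL4 siRNA. All 3 SALL4 libraries were below every other library of the series. HES3 fell by 1.97 (SE 0.30, interval -2.58 to -1.35), to 25.4% of the control level in CPM, with an adjusted p of 0.000109 in edgeR's test. It fell by 1.84 and 2.08 against replicate 1 and replicate 2 of the controls alone.

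The sequence before the start of the 3 genes called after SALL4 siRNA, and of SOX21, called after VRTN siRNA, is shown from the RefSeq promoter table (GRCh38.p14), 5′ to 3′ on the strand of the gene. Of the 9 genes, 7 had an entry there, and SOX11 and SIX3 had none. Each stretch is the part of the 250 bases before the RefSeq start that lies outside every GENCODE exon. Capitals mark matches on either strand to any of ATATT (an AT-rich word, the base composition SALL4 zinc fingers are known to bind), CACNAG (the N box of HES repressors), ACAAAG or ACAATG (SOX sites), CCAAT and TATAAA. No matches overlapped. The stretches are SOX3 at chrX:140505117-140505319, minus strand, ending 47 bases before the start; FEZF1 at chr7:122304751-122304949, minus strand, before the first of its 2 listed starts; HES3 at chr1:6243929-6244178, plus strand; and SOX21 at chr13:94712546-94712715, minus strand.
SOX3: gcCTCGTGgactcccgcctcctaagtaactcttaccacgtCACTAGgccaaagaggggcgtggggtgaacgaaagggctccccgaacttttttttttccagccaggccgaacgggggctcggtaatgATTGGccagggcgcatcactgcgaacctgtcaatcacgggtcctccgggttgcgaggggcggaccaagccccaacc
FEZF1: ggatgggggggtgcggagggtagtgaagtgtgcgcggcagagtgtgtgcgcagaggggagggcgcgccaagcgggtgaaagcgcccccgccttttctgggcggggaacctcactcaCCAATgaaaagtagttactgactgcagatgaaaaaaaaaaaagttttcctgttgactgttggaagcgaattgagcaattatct
HES3: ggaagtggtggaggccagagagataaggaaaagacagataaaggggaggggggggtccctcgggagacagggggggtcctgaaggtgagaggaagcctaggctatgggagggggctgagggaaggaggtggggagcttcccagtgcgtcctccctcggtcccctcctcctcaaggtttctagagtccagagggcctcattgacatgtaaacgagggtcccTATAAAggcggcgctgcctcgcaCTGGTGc
SOX21: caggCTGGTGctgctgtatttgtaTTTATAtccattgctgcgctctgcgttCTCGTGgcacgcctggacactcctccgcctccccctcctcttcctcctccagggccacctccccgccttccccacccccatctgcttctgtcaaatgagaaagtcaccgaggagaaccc

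Over 35116 RefSeq windows of 250 bases, ATATT occurred in 21.4%, CACNAG in 32.0%, ACAAAG in 13.7%, ACAATG in 9.29%, CCAAT in 32.0% and TATAAA in 10.7%. Some of the stretches are shorter than these windows, but the whole 250 bases of the 4 genes also held neither the AT-rich word nor either SOX site. SOX3 held CACNAG 243 and 205 bases before its start and CCAAT 119 bases before it, and FEZF1 held CCAAT 79 bases before its first start. The 250 bases before the second FEZF1 start, not shown, held CACNAG at 65 and 29 bases and CCAAT at 206, 131 and 90 bases. HES3, the gene that fell, held TATAAA 25 bases and CACNAG 2 bases before its start. SOX21 held CACNAG at 161 and 114 bases and TATAAA at 141 bases, and CCAAT at 210 bases, outside the stretch shown. GC content over the whole 250 bases was 61.6% for SOX3, 52.8% for the first start of FEZF1, 61.2% for HES3 and 58.8% for SOX21, around the median of 58.0% over all windows. The window of ZIC2 held no match to the 6 words, with a GC content of 75.6%. OTX2, which was not called after SALL4 siRNA, held ATATT 213 bases and CCAAT 44 bases before its start at chr14:56810479. It held no match before its start at chr14:56805667. GBX2 held CCAAT at 82 bases. A match describes letters only and names no bound factor.

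The remaining genes were not called after SALL4 siRNA. SOX21 had 7.65, 5.45 and 12.1 CPM against 5.00 and 1.44 with Luciferase and 1.82 and 2.55 with Control siRNA. Its 3 SALL4 libraries were all above the controls, but the change of 1.66 (SE 0.54, interval 0.56 to 2.76) had an adjusted p of 0.0971. Leaving out Luciferase replicate 1, the highest control, gave 2.24 and an adjusted p of 0.00258.

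OTX2 had 35.6, 31.9 and 53.3 CPM after SALL4 siRNA against 43.6 to 51.7 in the controls, a difference of -0.21 (interval -0.56 to 0.14). ZIC2 had 264.2, 251.2 and 225.9 CPM against 186.5 to 257.5, a difference of 0.15 (interval -0.08 to 0.38). SOX11, the SOXC factor, had 15.8, 19.8 and 16.2 CPM against 11.9 to 17.4, a difference of 0.29 (interval -0.22 to 0.81). The ranges of these 3 genes overlapped those of the controls.

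SIX3 was near the floor and no fold is given. It had 2 and 0 counts with Luciferase siRNA, 15 and 0 with Control siRNA, and 56, 42 and 0 counts with SALL4 siRNA, the highest SALL4 level being 1.91 CPM. The other knockdown libraries had 0 to 11 counts. SIX3 entered the test although only 2 SALL4 libraries exceeded 15 counts, and its 0 counts overlapped between all groups.

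An antisense transcript overlaps FEZF1. FEZF1-AS1 (ENSG00000230316) lies on the plus strand at chr7:122303658-122310077 and shares exonic positions with FEZF1. It had 7.99, 5.38 and 10.4 CPM after SALL4 siRNA against 1.98, 2.04, 1.65 and 1.29 CPM in the controls, in the order Luciferase then Control. All 3 were above every control, and FEZF1-AS1 rose by 2.20 (SE 0.55, edgeR adjusted p = 0.02). The strand setting of the counting is not given in the sources used here, so reads of FEZF1 and FEZF1-AS1 may be split between them or dropped, and the 2 changes cannot be told apart.

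**Figure D2:**
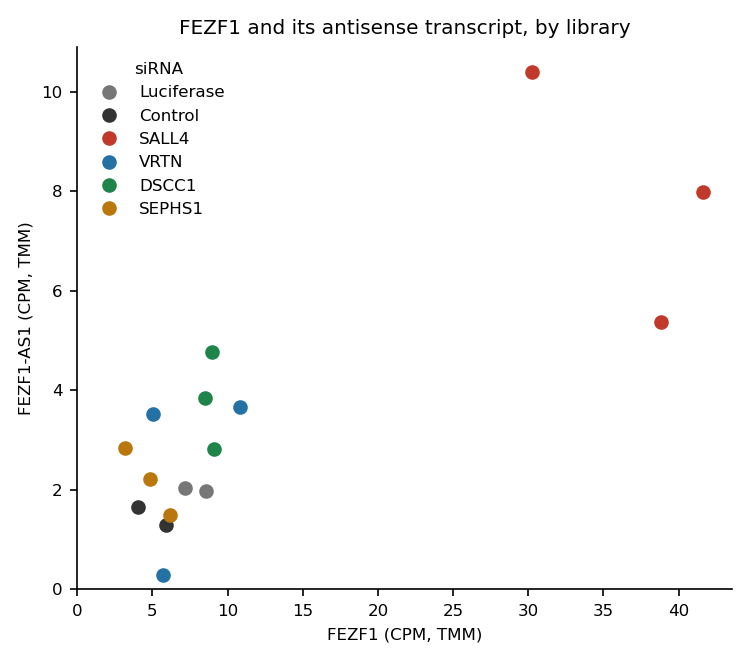
Level of FEZF1 (horizontal axis, CPM) against its antisense transcript FEZF1-AS1 (vertical axis, CPM), 1 point per library, coloured by siRNA. The 3 SALL4 libraries lie apart at 30.3 to 41.6 CPM for FEZF1 and 5.38 to 10.4 CPM for FEZF1-AS1.

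SOX21-AS1, a transcript on the other strand starting 317 bases from SOX21, had 0 to 33 counts in the 16 libraries and was called in no comparison with the controls. AC019068.1, antisense to GBX2, and AC108025.2, which overlaps SOX11, had at most 7 counts in any library.

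After VRTN siRNA, SOX21 and ZIC2 rose and no member fell. That is 2 of 9, where 1.13% of all tested genes were called (0.445% higher and 0.683% lower). The choice of the 9 limits this count in the same way. The VRTN libraries lay outside the control range for the same 2 genes, which 12.0% of all tested genes did. The median log2 fold change of the 8 genes other than SIX3 was 0.29, beside 0.02 over all genes. These values use the same 4 controls as those for SALL4 siRNA, so the comparisons are not independent.

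SOX21 (ENSG00000125285) is a gene of 1 exon on the minus strand at chr13:94709622-94712399. It had 9.34, 12.4 and 16.9 CPM with VRTN siRNA, and the controls had 1.44 to 5.00 CPM. Each VRTN library exceeded the highest control. SOX21 rose by 2.28 (SE 0.54, interval 1.17 to 3.39), to 12.9 ± 3.8 from 2.70 ± 1.60 CPM, with an adjusted p of 0.0252 in edgeR's test. The estimate was no longer called without VRTN replicate 2 (2.31, adjusted p = 0.0844), without VRTN replicate 3 (2.04, adjusted p = 0.158) and against replicate 1 of the controls alone (2.09, adjusted p = 0.0572), while against replicate 2 alone it was 2.75 (adjusted p = 0.00197).

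ZIC2 (ENSG00000043355), on the plus strand at chr13:99981772-99986773, had 295.1, 300 and 347.5 CPM with VRTN siRNA. The controls had 249.3 and 196.4 CPM with Luciferase and 257.5 and 186.5 CPM with Control siRNA, higher in replicate 1 of each. ZIC2 rose by 0.50 (SE 0.11, interval 0.27 to 0.73), a 1.41-fold change, with an adjusted p of 0.0178 in edgeR's test. Against replicate 1 of the controls it was 0.31 and not called (adjusted p = 0.649), and against replicate 2 it was 0.72 (adjusted p = 0.000423). Without Luciferase replicate 2, Control replicate 2 or VRTN replicate 3 it was 0.42, 0.39 and 0.42, with adjusted p values of 0.0986, 0.164 and 0.141.

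The genes called after SALL4 siRNA were not called after VRTN siRNA. SOX3 had 18.8, 11.7 and 13.2 CPM (difference -0.22, interval -0.66 to 0.22). FEZF1 had 5.71, 5.06 and 10.9 CPM (0.20, interval -0.35 to 0.76), and HES3 had 9.58, 9.91 and 10.1 CPM (0.15, interval -0.42 to 0.71). OTX2, with 54.3, 46.2 and 79.6 CPM, had a difference of 0.37 (interval 0.02 to 0.71, adjusted p = 0.493), in which replicate 3 was highest. SOX11 had 13.5, 10.3 and 15.9 CPM, a difference of -0.09 (interval -0.61 to 0.43).

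**Figure D3:**
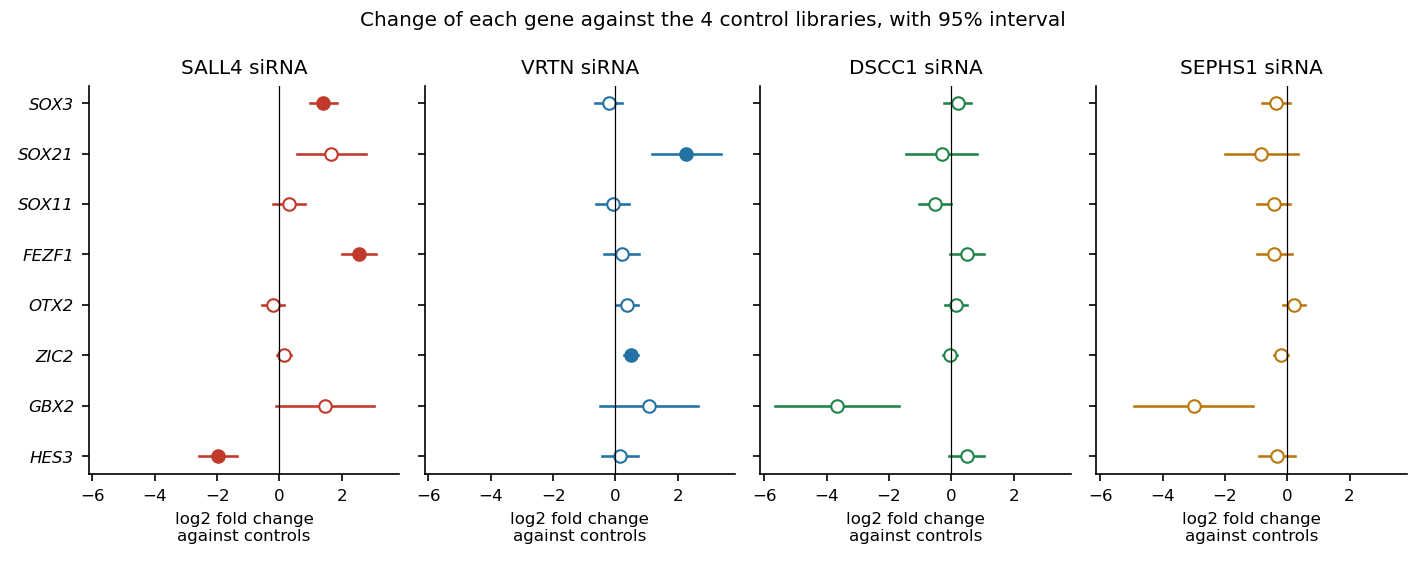
Log2 fold change of 8 of the 9 genes against the 4 control libraries (horizontal axis) with the 95% interval, for each siRNA; SIX3 is left out because it is near the floor. Filled points are called at an adjusted p under 0.05: SOX3 and FEZF1 higher and HES3 lower under SALL4 siRNA, and SOX21 and ZIC2 higher under VRTN siRNA.

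SALL4 and VRTN siRNA were compared directly, which uses no control library and holds the harvest time at 48 h, although the kind of siRNA differed. SOX3 was higher under SALL4 siRNA by 1.62 (SE 0.24, adjusted p = 3.19e-05), FEZF1 was higher by 2.35 (SE 0.30, adjusted p = 4.14e-06) and HES3 was lower by -2.11 (SE 0.32, adjusted p = 5.94e-05), in edgeR's test. These 3 of 9 stand beside 2.44% called among all tested genes (1.73% higher and 0.703% lower), and their libraries did not overlap between the groups, as for 16.2% of all tested genes. ZIC2 was lower under SALL4 siRNA in all libraries (-0.35, interval -0.60 to -0.10) but was not called (adjusted p = 0.158).

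SOX21 was called in the VRTN group and not in the SALL4 group, yet the direct difference between them was -0.62 (interval -1.78 to 0.54, adjusted p = 0.753) and their libraries overlapped. OTX2 differed by -0.58 (interval -0.95 to -0.20, adjusted p = 0.1), and without SALL4 replicate 3 by -0.82 (adjusted p = 0.00422). SOX11 differed by 0.38 (interval -0.17 to 0.94).

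After DSCC1 siRNA none of the 9 genes was called by edgeR, DESeq2 or limma-voom, and 1 had an unadjusted p under 0.05 in edgeR's test. Here and below, a gene to which a method gave no adjusted p counts as not called. Among all tested genes 0.0455% were called. SOX3 (20.9, 18.7 and 19.2 CPM) differed by 0.21 (interval -0.23 to 0.64), FEZF1 (9.06, 8.99 and 8.52 CPM) by 0.50 (interval -0.05 to 1.05) and HES3 (8.74, 13.7 and 15.2 CPM) by 0.49 (interval -0.07 to 1.06). SOX11 (6.71, 9.66 and 13.0 CPM) was at -0.52 (interval -1.05 to 0). Each of the 9 overlapped the control range, which 9.10% of all tested genes did not.

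SOX21, ZIC2 and OTX2 differed from the controls by -0.31 (interval -1.44 to 0.83), -0.04 (interval -0.28 to 0.19) and 0.15 (interval -0.19 to 0.50) after DSCC1 siRNA. The 3 DSCC1 libraries of ZIC2, at 211.5, 217.4 and 217.9 CPM, lay within the span of the controls.

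After SEPHS1 siRNA none of the 9 was called by edgeR, DESeq2 or limma-voom either, 1 had an unadjusted p under 0.05, and 1.53% of all tested genes were called. The estimate was negative for 7 of the 8 genes other than SIX3, with a median of -0.38 beside -0.02 over all genes, and each gene overlapped the control range, which 13.0% of all tested genes did not. SOX3 had 10.3, 10.8 and 19.0 CPM (difference -0.35, interval -0.80 to 0.10). FEZF1 had 3.18, 6.14 and 4.85 CPM (-0.41, interval -0.98 to 0.16) and HES3 6.51, 8.23 and 6.60 CPM (-0.32, interval -0.90 to 0.25).

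SOX11 had 13.5, 8.45 and 9.29 CPM after SEPHS1 siRNA, a difference of -0.44 (interval -0.96 to 0.09). SOX21 had 0.049, 1.58 and 2.86 CPM (-0.84, interval -2.01 to 0.34), the first below the floor. ZIC2 at 198.0, 184.3 and 194.7 CPM differed by -0.21 (interval -0.44 to 0.03), and OTX2 at 47.2, 56.7 and 57.2 CPM by 0.21 (interval -0.14 to 0.56).

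DSCC1 and SEPHS1 siRNA, both esiRNAs harvested at 72 h, were also compared directly. None of the 9 was called by edgeR, DESeq2 or limma-voom, beside 0.268% of all tested genes, and 3 had an unadjusted p under 0.05. FEZF1 was higher under DSCC1 siRNA in all libraries by 0.90 (interval 0.30 to 1.51, adjusted p = 0.244), and so was HES3 by 0.82 (interval 0.20 to 1.43, adjusted p = 0.343). ZIC2 was also above in all libraries, by 0.16. Such separation held for 14.0% of all tested genes. SOX3 differed by 0.56 with overlapping libraries (interval 0.08 to 1.03, adjusted p = 0.441).

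Between the 2 control siRNAs no gene was called by edgeR, DESeq2 or limma-voom, and none of the 9 had an unadjusted p under 0.05. FEZF1 and HES3 were lower with Control than with Luciferase siRNA in both libraries, by -0.66 (interval -1.39 to 0.07) and -0.27 (interval -1.02 to 0.47), and 28.3% of all tested genes separated the 2 pairs in this way.

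GBX2 (ENSG00000168505), on the minus strand at chr2:236165236-236168369, varied widely within the Luciferase, Control, SALL4 and VRTN groups. It was low in every DSCC1 and SEPHS1 library. It had 16.8 and 0.480 CPM with Luciferase siRNA and 15.7 and 1.5 CPM with Control siRNA. With SALL4 siRNA it had 29.3, 39.6 and 2.05 CPM, and with VRTN siRNA 23.5, 29.9 and 0.863 CPM. With DSCC1 siRNA it had 0.139, 1.13 and 0.694 CPM, and with SEPHS1 siRNA 1.42, 1.07 and 0.701 CPM. Thus 1 library of each control pair, and the third replicate of SALL4 and of VRTN, matched the low libraries harvested at 72 h.

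Within groups the SD of GBX2 was 2.18 on the log2 CPM scale, at percentile 99.9 of 1903 genes of similar level, whose median was 0.63. SOX21 had 1.22, at percentile 96.3 of its level, whereas HES3 was among the steadiest genes of its level with 0.24, at percentile 2.67. GBX2 had 356 and 12 counts with Luciferase siRNA and 458 and 44 with Control siRNA.

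GBX2 was called in no comparison. Its difference was 1.46 after SALL4 siRNA (interval -0.11 to 3.04, adjusted p = 0.434), 1.07 after VRTN siRNA (interval -0.51 to 2.65, adjusted p = 0.716), -3.68 after DSCC1 siRNA (interval -5.67 to -1.68, adjusted p = 0.281) and -3.00 after SEPHS1 siRNA (interval -4.91 to -1.09, adjusted p = 0.112). These values turned on which controls were used. Against replicate 1 of the controls GBX2 was at -4.59 after DSCC1 siRNA and -3.92 after SEPHS1 siRNA, both called (adjusted p = 1.05e-08 and 1.33e-07), and at 0.54 and 0.15 after SALL4 and VRTN siRNA, neither called. Against replicate 2 it was at 4.80 and 4.41 after SALL4 and VRTN siRNA, both called (adjusted p = 7.95e-09 and 1.31e-07), and at 0.33 after SEPHS1 siRNA. Replicate 1 of the controls exceeded replicate 2 by 4.01 (SE 0.96, adjusted p = 0.229), where 0.0152% of all tested genes were called.

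Of the genes most like GBX2 in their pattern over the 16 libraries, by Pearson's r of log2 CPM among 9621 genes, SPRY4 had r = 0.920 and MN1 r = 0.919. SPRY4 encodes a feedback inhibitor of FGF signalling that FGF itself induces, and MN1 encodes a transcriptional coregulator. MN1 lay between 56.3 and 81.3 CPM in the 6 libraries high in GBX2 and between 32.5 and 49.4 CPM in the other 10. GBX2, SPRY4 and MN1 thus separated the same libraries.

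**Figure D4:**
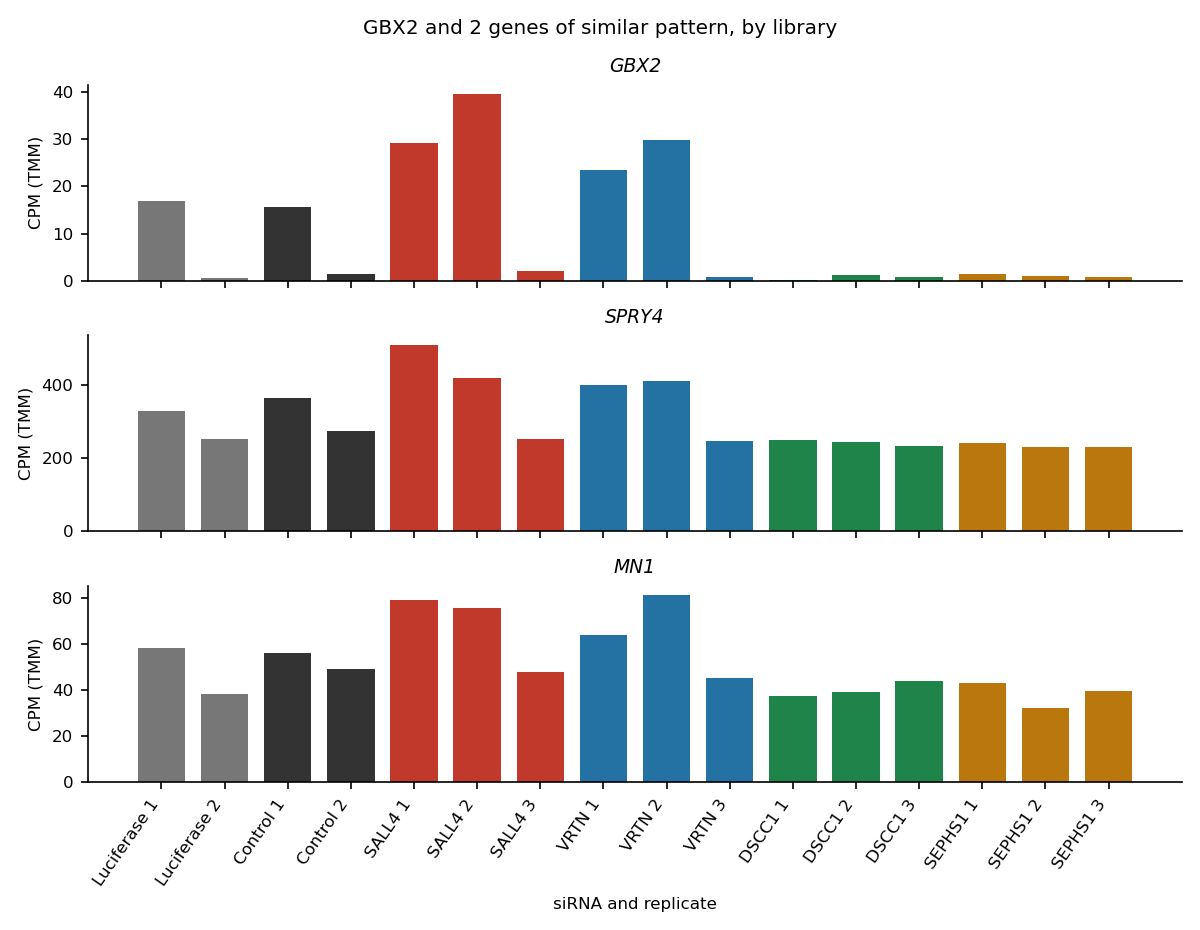
Levels (CPM, linear axes from 0) of GBX2 and of SPRY4 and MN1, which are among the genes that correlate most with it, in each of the 16 libraries. Bars are single libraries coloured by siRNA; the same 6 libraries are high in all 3 panels.

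For the other genes the nearest patterns are given as a description over 16 libraries, which share their groups. SOX3 was most like CD99 (r = 0.897), MOV10 (r = 0.896) and SDC2 (r = 0.884), and FEZF1 most like MOV10 (r = 0.937), LRRC41 (r = 0.910) and ITGB5 (r = 0.905). MOV10, an RNA helicase, had 187, 164 and 155 CPM after SALL4 siRNA and 47.4 to 63.6 in the controls. HES3 was most like SLC25A23 (r = 0.921), PDZD4 (r = 0.906) and PRDM14 (r = 0.902), the last a repressor of pluripotent cells, which had 62.9, 54.9 and 50.2 CPM after SALL4 siRNA and 114 to 133 in the controls.

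SOX21 was most like ADCY2 (r = 0.889), MXD4 (r = 0.874) and ARHGEF11 (r = 0.866). ZIC2 was most like TMSB4XP8 (r = 0.901), ATAT1 (r = 0.878) and TMSB4X (r = 0.854), the first and last being a pseudogene and its parent that may share reads. OTX2 was most like FLAD1 (r = 0.859), TLCD3A (r = 0.857) and TDRKH (r = 0.849), and SOX11 most like AKAP8L (r = 0.807), MAST1 (r = 0.797) and SEMA4D (r = 0.796).

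Among the members, SOX3 and FEZF1 had r = 0.84 over the 16 libraries but -0.13 once group means were removed. SOX3 and HES3 had r = -0.78 and -0.38, FEZF1 and HES3 -0.73 and 0.27, and SOX21 and ZIC2 0.69 and 0.04, in the same order. For SOX3 with FEZF1 and for SOX21 with ZIC2, the replicates within a group thus showed little of the likeness seen across groups.

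**Figure D5:**
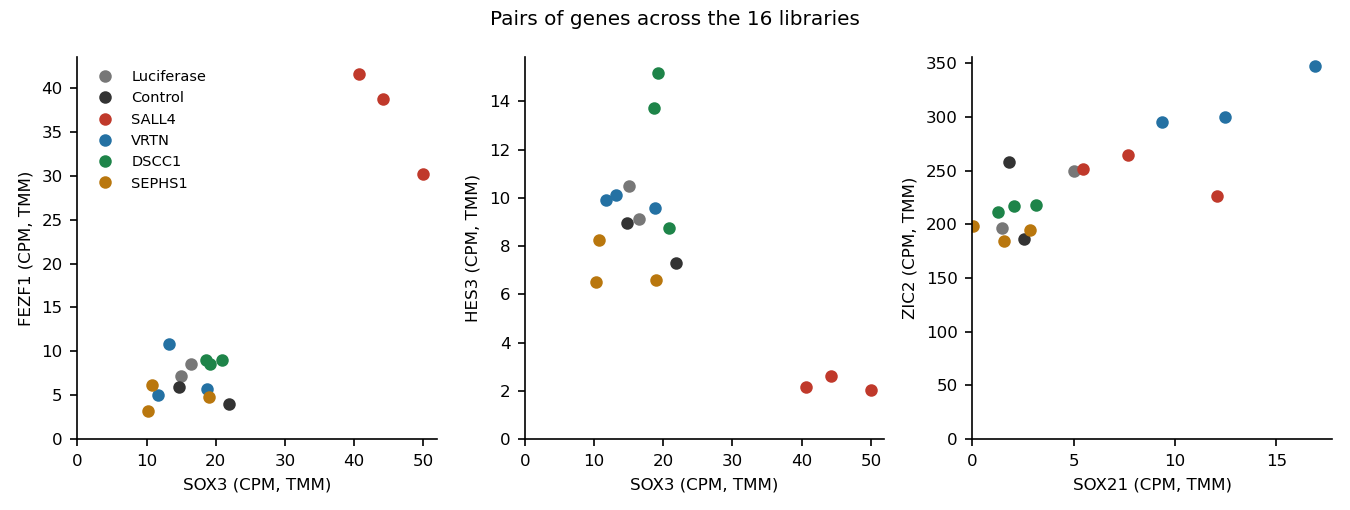
Levels (CPM) of FEZF1 against SOX3, HES3 against SOX3 and ZIC2 against SOX21, 1 point per library, coloured by siRNA. In the left and middle panels the 3 SALL4 libraries lie apart, with SOX3 at 40.7 to 50.0 CPM, and in the right panel the 3 VRTN libraries lie at the upper right.

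Ordered by mean level, neighbouring groups did not overlap in few places, with the 4 controls as 1 group. SOX3 and FEZF1 were highest under SALL4 siRNA, above DSCC1, and the rest of their order overlapped step by step. HES3 was lowest under SALL4 siRNA, below SEPHS1. ZIC2 was highest under VRTN siRNA, above SALL4, and its DSCC1 libraries were above its SEPHS1 libraries. SOX21 was highest under VRTN and then SALL4 siRNA, which overlapped, with SALL4 above the controls. For SOX11, OTX2, SIX3 and GBX2 every neighbouring pair of groups overlapped.

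Related genes of the same families moved in part. Of 5 tested SOX paralogues, SOX4 rose after SALL4 siRNA (by 0.51, to 116.2 ± 21.4 from 81.5 ± 10.5 CPM, adjusted p = 0.0228), and SOX12 rose after VRTN siRNA (by 0.55, adjusted p = 0.0116). SOX2 itself was at 216.4 ± 23.4 CPM after SALL4 siRNA and 198.4 ± 13.7 in the controls, and was not called. Of 4 tested relatives of ZIC2, OTX2, SIX3, GBX2 and FEZF1, ZIC5 fell by 0.49 after SALL4 siRNA (adjusted p = 0.0288). Of 7 tested HES and HEY genes, HEYL fell by 1.53 after SALL4 siRNA (adjusted p = 0.0047) and HES1 fell by 1.09 after VRTN siRNA (adjusted p = 0.0371).

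Wider neural lists are given beside the share of all tested genes called. That share was 2.98% after SALL4, 1.13% after VRTN, 1.53% after SEPHS1 and 0.0455% after DSCC1 siRNA. The same shares stand beside the families above and the lists below, and no list was tested as a set. Of 10 tested genes of the anterior neural plate, none was called by edgeR after SALL4 siRNA and 0 had an unadjusted p under 0.05, and SFRP1, a secreted Wnt antagonist, rose by 0.89 after VRTN siRNA (adjusted p = 3.81e-06). Of 16 tested neural progenitor genes, CDH2, the neural cadherin, rose after SALL4 (by 1.31) and after VRTN siRNA (by 1.11), PROM1 rose after VRTN siRNA (by 1.24), and NES, an intermediate filament of progenitors, fell by 0.67 after SALL4 siRNA. Of 10 tested neurogenic and neuronal genes, INSM1, a zinc finger factor of neurogenesis, rose by 3.08 after SALL4 siRNA (adjusted p = 0.0021) with 15.2 ± 12.2 CPM against 1.85 ± 1.26. Of 16 tested genes of the Notch pathway, MAML2, a coactivator, rose after SALL4 (by 1.51), VRTN (by 1.98) and SEPHS1 siRNA (by 1.28), and RBPJ, the DNA-binding partner of Notch, rose after SALL4 siRNA (by 0.62). In the context lists no gene was called after DSCC1 siRNA, and no gene of the midbrain, hindbrain and caudal list (10 tested) or of the neural crest and border list (8 tested) was called in any knockdown against the controls.

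Pluripotency genes and markers of other cell types were read beside these changes. Of 13 tested pluripotency genes, 4 fell after SALL4 siRNA, where 1.13% of all tested genes were called lower. Among the 4 were DNMT3B (by 1.31), SALL2 (by 1.23) and PRDM14 (by 1.1). None of the 13 was called higher, and their median difference was -0.12. NANOG, at 125.7 CPM against 86.0 in the controls, and POU5F1, at 237 against 198, were higher without being called. After VRTN siRNA UTF1 fell by 1.2 and DPPA4 rose by 0.38. After SEPHS1 siRNA TERF1 rose by 0.77 and SALL2 fell by 0.46, and after DSCC1 siRNA edgeR called none, with 2 at an unadjusted p under 0.05. The 8 stem cell markers summed to 3240 to 3310 CPM after SALL4 siRNA against 3560 to 3940 CPM in the controls. The median difference of the 7 that were tested was 0.1, and 1 of the 7 was called, as lower. The lower sum was thus not a fall of most of these markers. The summed level of the 4 neuroectoderm markers, most of it NES, was 78.1 to 92.2 CPM after SALL4 siRNA and 123 to 134 in the controls. PAX6 was at or under 3 counts in every SALL4 library. The median difference of the 3 neuroectoderm markers that were tested was 1.93. SOX1 (2.36 against 0.63 CPM) and LHX2 (0.338 against 0.146 CPM) were higher, but low and not called. The 4 neuron markers summed to 3.66 to 5.37 CPM after SALL4 siRNA and 3.50 to 6 in the controls. The 4 neural crest markers summed to 18.9 to 21.6 against 12.8 to 19.2 CPM, the 6 mesendoderm markers to 10 to 17.5 against 8.38 to 13.2 CPM and the 6 definitive endoderm markers to 4.15 to 12.5 against 4.71 to 9.97 CPM. The 7 trophoblast or amnion markers summed to 4.35 to 12.4 CPM after SALL4 siRNA against 4.20 to 7.88 CPM. KRT7 was the 1 called gene among them and fell by 2.13, while the median difference of the 5 that were tested was 1.34. The 6 fibroblast markers summed to 783 to 1680 CPM against 1820 to 2040 CPM. Among them COL1A1 fell by 0.82 to 932.7 CPM after SALL4 siRNA, THY1 had 322.1 CPM there against 243.9 in the controls without being called, and the median difference of the 4 that were tested was 0.43. After VRTN siRNA the definitive endoderm markers summed to 13.3 to 22.8 CPM, above all 4 controls, with none of them called by edgeR and 2 at an unadjusted p under 0.05, and the fibroblast markers to 788 to 1180 CPM, with COL1A1 lower by -1.28 (adjusted p = 4.64e-05). The neuroectoderm markers summed to 119 to 131 CPM and the neuron markers to 2.57 to 8.06 CPM under VRTN siRNA. The part of other cell types in the changes of the 9 genes was not tested.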

How the data were processed

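Raw counts per gene were deposited as 1 table of whole numbers for 60675 identifiers and 16 libraries. Per the submitters' processing notes, the authors used STAR 2.4.0.1, HTSeq 0.9.1 and the build GRCh38. The annotation release, strand setting and treatment of reads shared between copies are not given in the sources used here. Per the labels' protocols, poly(A) RNA was turned into libraries with the SENSE kit of Lexogen, and single reads of 80 bp were taken.

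The filter filterByExpr passed 19772 genes, all 9 members among them, and dropped 40903. Counts were scaled by TMM and tested with edgeR 4.0.16 (limma 3.58.1, R 4.3.3) in 1 fit over 6 groups, with no covariate. The fit had a common dispersion of 0.347. Contrasts took a knockdown group minus the average of the 2 control groups, and SEs were derived from the log2 fold change and the F statistic. The 9 members, the gene lists and the motifs were chosen with earlier results of these data known, so the counts over lists are descriptions.

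The text names the 9 members, the 4 targets, at most 2 called genes per direction from each context list, and the 3 genes most like each member (Pearson, mean of at least 2 log2 CPM, prior count 2). Motifs, neighbouring genes and the split in GBX2 were added after the data were seen. Positions come from GENCODE release 29. Alternatives were DESeq2 1.42.0, limma-voom, other scaling, other filters, a replicate block, other sets of controls, and each library left out. The scripts were tested on simulated data. Reads carry no molecular identifiers. Results for some genes that the rule selects are not reported here. For SIX3 no alternative values are given.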

Additional observations from a re-analysis of the deposited data

How the results depend on the processing

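SOX3, FEZF1 and HES3 kept their calls after SALL4 siRNA under all 19 alternatives tried (1.24 to 1.59, 2.23 to 2.89 and -2.10 to -1.83) and against VRTN siRNA under all 14 (1.49 to 1.86, 2.16 to 2.78 and -2.21 to -2.03). The count called after SALL4 siRNA was 3, and 5 with no filter or with replicate 2 of the controls alone. Over single libraries left out it ranged from 3 to 5, with SOX21 and GBX2 added without Luciferase replicate 1 and GBX2 without Control replicate 1. After VRTN siRNA the count of 2 became 1 with only the groups compared, 0 with Luciferase, Control or replicate 1 libraries alone as controls, and 3 (GBX2 added) with no filter or with replicate 2 of the controls alone. It ranged from 0 to 3 over single libraries left out, 0 being without VRTN replicate 3 and 3 without replicate 1 of either control siRNA. After DSCC1 and after SEPHS1 siRNA the count of 0 became 1 (GBX2, lower) with no filter or with replicate 1 of the controls alone, and ranged from 0 to 1 over single libraries left out. Between SALL4 and VRTN siRNA OTX2 was also called with no filter and by limma-voom. The cause of these shifts was not tested.

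Same-numbered replicates of different groups were compared over 5526 genes. Their deviations had r from -0.32 to 0.36 (median 0.02), with 9 of 36 pairs over 0.1. Pairs of different number had r from -0.42 to 0.42 (median 0), with 13 of 70 pairs over 0.1. Of the 16 libraries, 8 correlated best with a library of their own number. These values do not settle whether the number pairs libraries. With a replicate block 4 members were called after SALL4 siRNA (GBX2 added at 2.16), 2 after VRTN, 0 after DSCC1 and after SEPHS1, and 4 between SALL4 and VRTN (OTX2 added). Over all genes the block gave 820 calls for SALL4 and 283 for VRTN, against 590 and 223 without it, 15 against 9 for DSCC1, and 147 against 53 between DSCC1 and SEPHS1. Over the settings that leave out no single library, calls among all genes ran from 236 to 1291 for SALL4, 89 to 417 for VRTN, 2 to 109 for DSCC1 (9 as reported), 103 to 569 for SEPHS1 (303 as reported), 193 to 897 between SALL4 and VRTN (482 as reported) and 24 to 212 between DSCC1 and SEPHS1, so the shares of all genes given as background shift with the setting.

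Estimates that changed sign were uncalled in both settings. With replicate 1 of the controls alone ZIC2 was at -0.04 after SALL4 siRNA. With replicate 2 alone SOX21 was at 0.16 and ZIC2 at 0.17 after DSCC1 siRNA, and ZIC2 at 0.01 and GBX2 at 0.33 after SEPHS1 siRNA. Without Luciferase replicate 1 SOX11 was at 0.04 after VRTN siRNA, and SOX21 at 0.27 and ZIC2 at 0.05 after DSCC1 siRNA. Without Control replicate 1 ZIC2 was at 0.08 there. FEZF1 after VRTN siRNA was at -0.13 with Luciferase alone and at -0.22 without VRTN replicate 3, and SOX11 at 0.06 without VRTN replicate 2. Between SALL4 and VRTN siRNA GBX2 was at -0.18 without SALL4 replicate 2 and at -0.17 without VRTN replicate 3. Between DSCC1 and SEPHS1 siRNA SOX11 was at 0.12 without DSCC1 replicate 1, and SOX11 at 0.14 and SOX21 at -0.04 without SEPHS1 replicate 1. Over single libraries left out the ranges of these estimates were, after VRTN siRNA, -0.24 to 0.06 for SOX11 and -0.22 to 0.40 for FEZF1, and after DSCC1 siRNA -0.68 to 0.27 for SOX21 and -0.15 to 0.08 for ZIC2. They were -0.18 to 0.96 for GBX2 between SALL4 and VRTN siRNA, and -0.36 to 0.14 for SOX11 and -0.04 to 1.36 for SOX21 between DSCC1 and SEPHS1 siRNA. Where a control siRNA was left with 1 library, that library was assumed to vary like the other groups. Depth limits SIX3 and, in single libraries, SOX21 and GBX2, which came to 3 or fewer counts.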

Other observations

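HES3 lies 1768 bases from GPR153, a receptor gene on the opposite strand. GPR153 was at 16.1 ± 8.38 CPM after SALL4 siRNA (n = 3) and 9.46 ± 2.45 in the controls (n = 4), a difference of 0.77 (SE 0.30) that was not called (edgeR adjusted p = 0.207). The fall of HES3 was thus not accompanied by a called fall of this neighbour. OTX2-AS1, 2704 bases from OTX2 on the opposite strand, had 0 to 19 counts across the libraries.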
